A study of Mus musculus with 6 samples.

Results

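The genes described are 10 conjugating enzymes of mouse liver: 6 UDP-glycosyltransferases (Ugt2a3, Ugt2b1, Ugt2b5, Ugt2b34, Ugt3a1 and Ugt3a2) and 4 cytosolic sulfotransferases (Sult1a1, Sult1b1, Sult1d1 and Sult5a1). They were taken by gene symbol from the platform annotation, which gave all 10 of them a probe set, 13 probe sets in total, among 18029 genes on the array. RNA was measured in livers of 3 RECS1 HKO mice, whose RECS1 deficiency is described by the submitters as specific to hepatocytes, and of 3 control mice with floxed RECS1 alleles. RECS1 is an older name of Tmbim1, which encodes a membrane protein. All 6 animals were C57BL/6 and 16 weeks old and had been fed a high-fat diet for 8 weeks, so no group on another diet was compared. The control animals carry the floxed alleles, and no source used here names the promoter that drives the deletion.

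Both enzyme families attach a polar group to lipid-soluble molecules, which makes them easier to excrete in bile and urine. UDP-glycosyltransferases (UGT) sit in the membrane of the endoplasmic reticulum and transfer a sugar, in most cases glucuronic acid from UDP-glucuronic acid. Cytosolic sulfotransferases (SULT) transfer sulfate from the donor PAPS. In liver both act on steroids, thyroid hormones, bile acids, phenols and many drugs, and their genes are regulated by nuclear receptors and, in part, by the sex-dependent pattern of growth hormone.

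The targeted gene, Tmbim1, was at 7.19, 7.14 and 7.06 in the HKO arrays and at 7.62, 7.58 and 7.74 in the control arrays (deposited log2 intensity). This is 0.697 times the control level in whole liver (adjusted p = 0.026), and which part of the transcript the probe set reads was not examined. The 6 arrays had medians between 3.92 and 3.95 and correlated across genes at 0.991 or above. Xist lay between 1.20 and 1.57 and the Y-linked gene Eif2s3y between 6.74 and 7.14 on all 6 arrays, and neither passed the test between the genotypes (adjusted p = 0.944 and 0.856). Of 12 hepatocyte markers, none passed the test, and their mean level lay between 11.95 and 12.25 in HKO liver and between 12.07 and 12.22 in control liver. None of 10 macrophage, 8 endothelial, 8 stellate, 5 cholangiocyte, 7 lymphocyte or 5 neutrophil markers passed either. The macrophage marker Cd163 came closest, with a log2 fold change (HKO minus control) of -0.48 and an adjusted p that rounds to 0.05 in the same test. Of the 10 macrophage markers, 6 had positive and 4 negative log2 fold changes. All 5 cholangiocyte markers had negative ones, with a median of -0.22, and all 5 lay below the level of the median gene. In whole liver, fewer cells of a type and less RNA per cell cannot be told apart. With 3 arrays a genotype, their number limits how precise each value is.

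None of the 10 genes passed the test between the genotypes (limma with Benjamini-Hochberg adjustment over all genes, adjusted p under 0.05). The share of all genes that passed was 1.01%, with 0.56% higher and 0.449% lower in HKO liver. At an unadjusted p under 0.05, 3 of the 10 genes differed, 2 of them higher (Sult1a1 and Sult1d1) and 1 lower (Ugt2b1), where 13% of all genes did. The 10 log2 fold changes (HKO minus control) ran from -0.32 to 0.32 with a median of 0.09, against a median of 0.00 over all genes. Their 95% intervals, which are not adjusted for the number of genes, lay together between -0.58 and 0.59, that is between 0.67 and 1.51 times the control level. The groups did not overlap in 3 genes that were higher in HKO liver (Sult1a1, Sult1d1 and Ugt2b5) and in 1 that was lower (Ugt2b1). Of all genes, 8.58% were higher and 10.1% lower without overlap. Tested as 13 separate probe sets, again none passed, where 0.702% of all probe sets did.

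**Figure D1:**
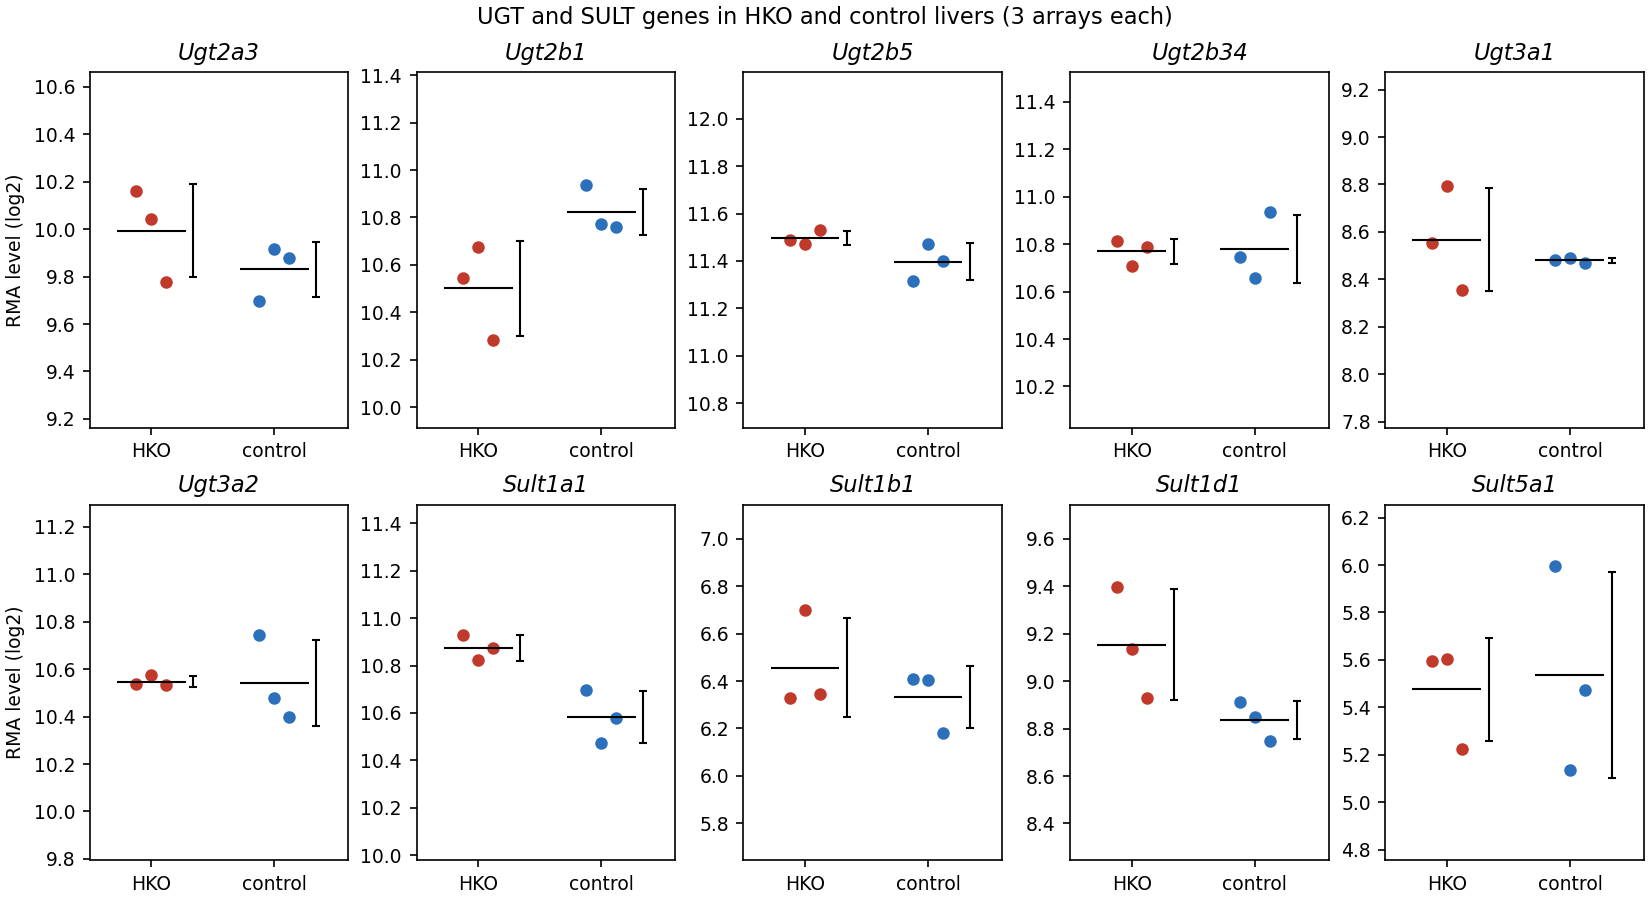
Deposited RMA level (log2, vertical axis) of the 10 genes in 3 HKO arrays (red, left) and 3 control arrays (blue, right), 1 panel a gene. Each point is 1 array, the line is the group mean and the bar its SD, and each panel spans the same range of log2 units. Sult1a1 and Sult1d1 stand higher and Ugt2b1 lower in HKO liver without overlap, while Ugt2b34 and Ugt3a2 have nearly the same mean in both genotypes.

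The UGT2B enzymes glucuronidate steroids, bile acids and phenols. By the brightest probe set of each gene, Ugt2b1 was the only UGT gene among the 10 with an interval that left out 0. Its level was 10.54, 10.67 and 10.28 in HKO liver and 10.94, 10.77 and 10.76 in control liver. All 3 HKO values were below all 3 control values, and the log2 fold change was -0.32 ± 0.11 (SE), or 0.799 times the control level, which did not pass the adjusted threshold (limma, adjusted p = 0.271).

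Ugt2b5 stood at 11.49, 11.47 and 11.53 in HKO liver and at 11.32, 11.47 and 11.40 in control liver. The nearest values of the groups nearly met, and the log2 fold change was 0.10 ± 0.07 (adjusted p = 0.625). Ugt2b34 has 2 probe sets. The brighter gave 10.81, 10.71 and 10.79 in HKO liver and 10.75, 10.66 and 10.94 in control liver, a log2 fold change of -0.01 (adjusted p = 0.975). The other gave 10.53, 10.45 and 10.68 in HKO liver and 10.69, 10.60 and 10.78 in control liver, a log2 fold change of -0.13. The genotypes overlapped in both. The brighter probe set carries the Affymetrix suffix for probes shared by several transcripts, and how much other UGT2B transcripts add to it was not tested. Ugt2a3, whose human counterpart glucuronidates bile acids, was at 10.16, 10.04 and 9.78 in HKO liver and at 9.70, 9.92 and 9.88 in control liver, with overlapping groups and a log2 fold change of 0.16 ± 0.11 (adjusted p = 0.605).

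The UGT2 genes lie next to each other on chromosome 5. In RefSeq's gene table for GRCm38.p6 they run in the order Ugt2b34, Ugt2b1, Ugt2b35, Ugt2b36, Ugt2b5, Ugt2b37, Ugt2a3, Ugt2b38, Ugt2a1 and Ugt2a2, followed by Sult1b1, Sult1d1 and Sult1e1, with no other protein-coding gene starting between them. The 90 bases before the annotated start of the 6 measured UGT2B genes are given here because Ugt2b37 passed the test between the genotypes and the 5 others did not. They are from RefSeq (GRCm38.p6), written 5′ to 3′ on the strand of the gene, with the palindrome GTTANNNNNTAAC in capitals.
Ugt2b34 (chr5:86906938-86907027, minus strand): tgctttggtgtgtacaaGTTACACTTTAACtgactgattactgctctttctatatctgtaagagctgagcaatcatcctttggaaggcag
Ugt2b1 (chr5:86926504-86926593, minus strand): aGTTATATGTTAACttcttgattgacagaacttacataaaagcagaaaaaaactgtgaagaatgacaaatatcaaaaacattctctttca
Ugt2b35 (chr5:87000770-87000859, plus strand): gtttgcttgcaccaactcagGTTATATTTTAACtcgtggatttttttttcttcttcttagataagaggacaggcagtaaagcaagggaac
Ugt2b36 (chr5:87092556-87092645, minus strand): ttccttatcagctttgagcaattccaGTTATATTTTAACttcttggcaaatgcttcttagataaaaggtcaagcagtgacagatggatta
Ugt2b5 (chr5:87140341-87140430, minus strand): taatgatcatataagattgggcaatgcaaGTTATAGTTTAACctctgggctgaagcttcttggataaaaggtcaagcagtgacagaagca
Ugt2b37 (chr5:87254789-87254878, minus strand): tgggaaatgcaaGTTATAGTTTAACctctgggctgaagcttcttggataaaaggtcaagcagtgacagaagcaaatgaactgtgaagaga

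The palindrome GTTANNNNNTAAC has the arms of the binding site of hepatocyte nuclear factor 1, a liver transcription factor known to act at UGT2B promoters. It is its own reverse complement, so a match on either strand is a match on both. It was found in 7 of 7 UGT2B promoters in the table, Ugt2b38 included, starting between 61 and 89 bases before the annotated start. Of 32851 promoters in the table, 101 (0.31%) hold it within 250 bases before the start, and 66 (0.201%) within 100 bases. Both counts include the 7 UGT2B promoters, which lie in the same gene cluster and are not independent. Enrichment was not tested. Among the 10 genes, 9 had a promoter in the table, and 4 of them held it: Ugt2b1, Ugt2b5 and Ugt2b34, and Ugt3a1 at 130 bases before the start. It was not found in the window of Ugt2a3 or in the 5 windows of the 4 SULT genes, which says only that these letters are not there. A match is a description of the sequence, and binding was not measured.

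Shared runs were sought in the 250 bases before each annotated start, of which 90 are printed above. Ugt2b5 and Ugt2b37 share an unbroken run of 68 bases, which includes the palindrome. The run ends at the last base before the annotated start of Ugt2b5. Bases after the start were not compared, so 68 is a lower limit. The next longest run, between Ugt2b36 and each of these genes, is 24 bases, and the longest runs of the other pairs have between 7 and 14 bases. Ugt2b37 is not among the 10 genes, but was measured as a member of the family. It was at 3.03, 3.33 and 2.94 in HKO liver and at 4.77, 3.97 and 4.33 in control liver, and fell in HKO liver by 1.25 on the log2 scale, to 0.419 times the control level (SE 0.19, adjusted p = 0.0283). The HKO values lay below the level of the median gene, 4.69, as did 2 of the 3 control values, so this is a difference between dim signals. It did not pass without HKO 1 (adjusted p = 0.133), HKO 3 (0.0953) or control 3 (0.102). Ugt2b37 was named because it passed, so its difference from Ugt2b5 is given as a description and was not tested. Ugt2b36 stood at 12.04, 12.07 and 12.07 in HKO liver and at 11.92, 12.00 and 11.93 in control liver. Its log2 fold change of 0.11 (adjusted p = 0.537) was close to that of Ugt2b5, and that of Ugt2b35 was -0.11 (0.757). How far probes for these similar transcripts also bind those of their neighbours was not tested.

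**Figure D2:**
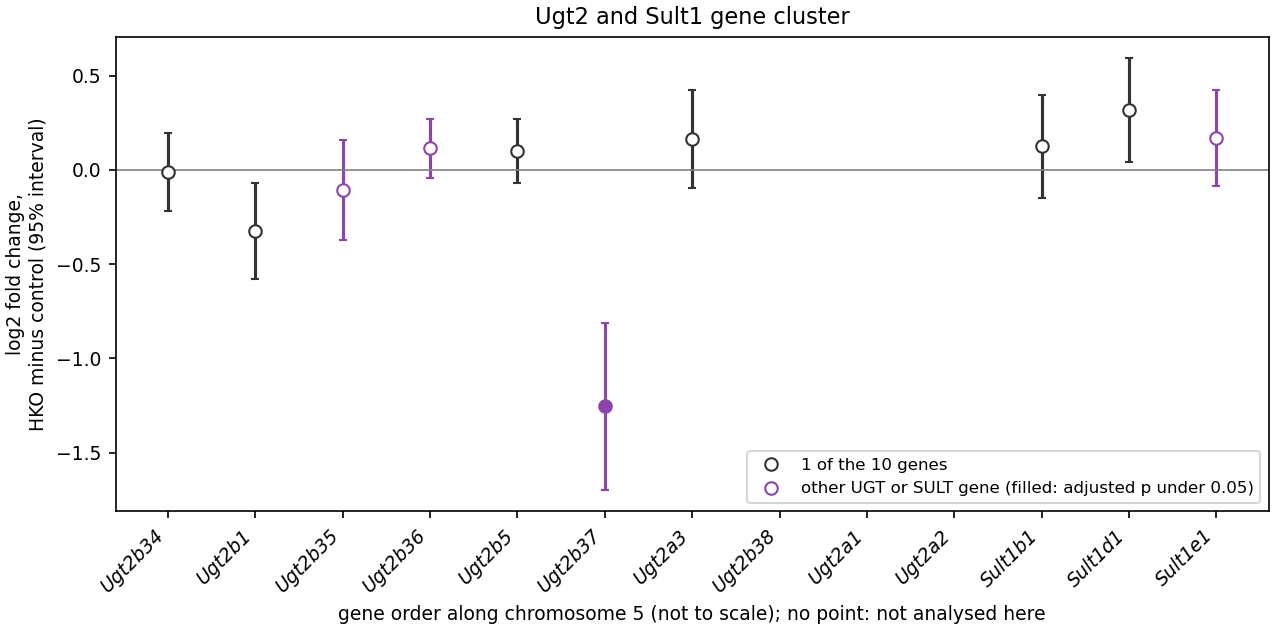
Log2 fold change (HKO minus control, vertical axis) with its 95% interval for the UGT2 and SULT1 genes in their order along chromosome 5 (horizontal axis, not to scale). Genes without a point were not analysed here. Ugt2b37, the filled point at -1.25, stands between Ugt2b5 at 0.10 and Ugt2a3 at 0.16.

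The UGT3 enzymes use other sugars than glucuronic acid: human UGT3A1 uses UDP-N-acetylglucosamine, and human UGT3A2 uses UDP-glucose and UDP-xylose. Ugt3a1 has 2 probe sets. The brighter gave 8.55, 8.79 and 8.36 in HKO liver and 8.48, 8.49 and 8.47 in control liver. The 3 control values were nearly equal and lay within the HKO range, with a log2 fold change of 0.09 ± 0.11 (adjusted p = 0.791). The other probe set gave 8.55, 8.59 and 8.21 in HKO liver and 8.18, 8.26 and 8.13 in control liver, a log2 fold change of 0.26 ± 0.11. Its interval, between 0.01 and 0.51, left out 0, and it did not pass (unadjusted p = 0.0458, limma adjusted p = 0.413 over all probe sets). The groups overlapped in both, and the second carries the suffix for shared probes. Ugt3a2, which lies beside Ugt3a1 on chromosome 15, was at 10.54, 10.57 and 10.53 in HKO liver and at 10.75, 10.48 and 10.40 in control liver. Its means differed by 0.01 log2 units (adjusted p = 0.987), and the spread was narrower in HKO liver (SD 0.02) than in control liver (SD 0.18).

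The SULT1 enzymes sulfate phenols, catecholamines and thyroid hormones. Sult1a1, the phenol sulfotransferase, had the lowest p of the 10 genes. It was at 10.93, 10.82 and 10.87 in HKO liver and at 10.70, 10.47 and 10.58 in control liver. The groups did not overlap, and the log2 fold change of 0.29 ± 0.08, or 1.22 times the control level, did not pass the adjusted threshold (unadjusted p = 0.00745, adjusted p = 0.191).

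Sult1d1 sulfates dopamine and other catecholamines in mice. Its brighter probe set gave 9.40, 9.14 and 8.93 in HKO liver and 8.91, 8.85 and 8.75 in control liver. The lowest HKO array and the highest control array differed by 0.02 log2 units, and the log2 fold change was 0.32 ± 0.12 (adjusted p = 0.316). The other probe set gave 7.75, 7.59 and 7.50 in HKO liver and 7.44, 7.46 and 7.23 in control liver. It had the same direction without overlap, with a log2 fold change of 0.24 ± 0.10 (adjusted p = 0.41 over all probe sets). Sult1b1, known for thyroid hormone sulfation, was at 6.33, 6.70 and 6.34 in HKO liver and at 6.41, 6.41 and 6.18 in control liver. The groups overlapped, and without HKO 2, the highest array, its log2 fold change of 0.13 (adjusted p = 0.716) was 0.00. Sult5a1, whose substrates are little known, was at 5.60, 5.60 and 5.22 in HKO liver and at 6.00, 5.14 and 5.47 in control liver, a log2 fold change of -0.06 ± 0.21 (adjusted p = 0.938). It had the widest spread of the 10 genes in control liver (SD 0.43).

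The spread within a genotype was set beside that of other genes. The median SD of the 10 genes was 0.20 log2 units in HKO liver and 0.11 in control liver, against 0.10 in both genotypes over all genes. HKO 3 was the lowest HKO array in 6 of the 10 genes and the highest in 1. Of the control arrays, control 3 was the lowest in 5 and the highest in 1, and control 1 was the highest in 6. These counts were not made over all genes. The difference in spread was not tested.

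**Figure D3:**
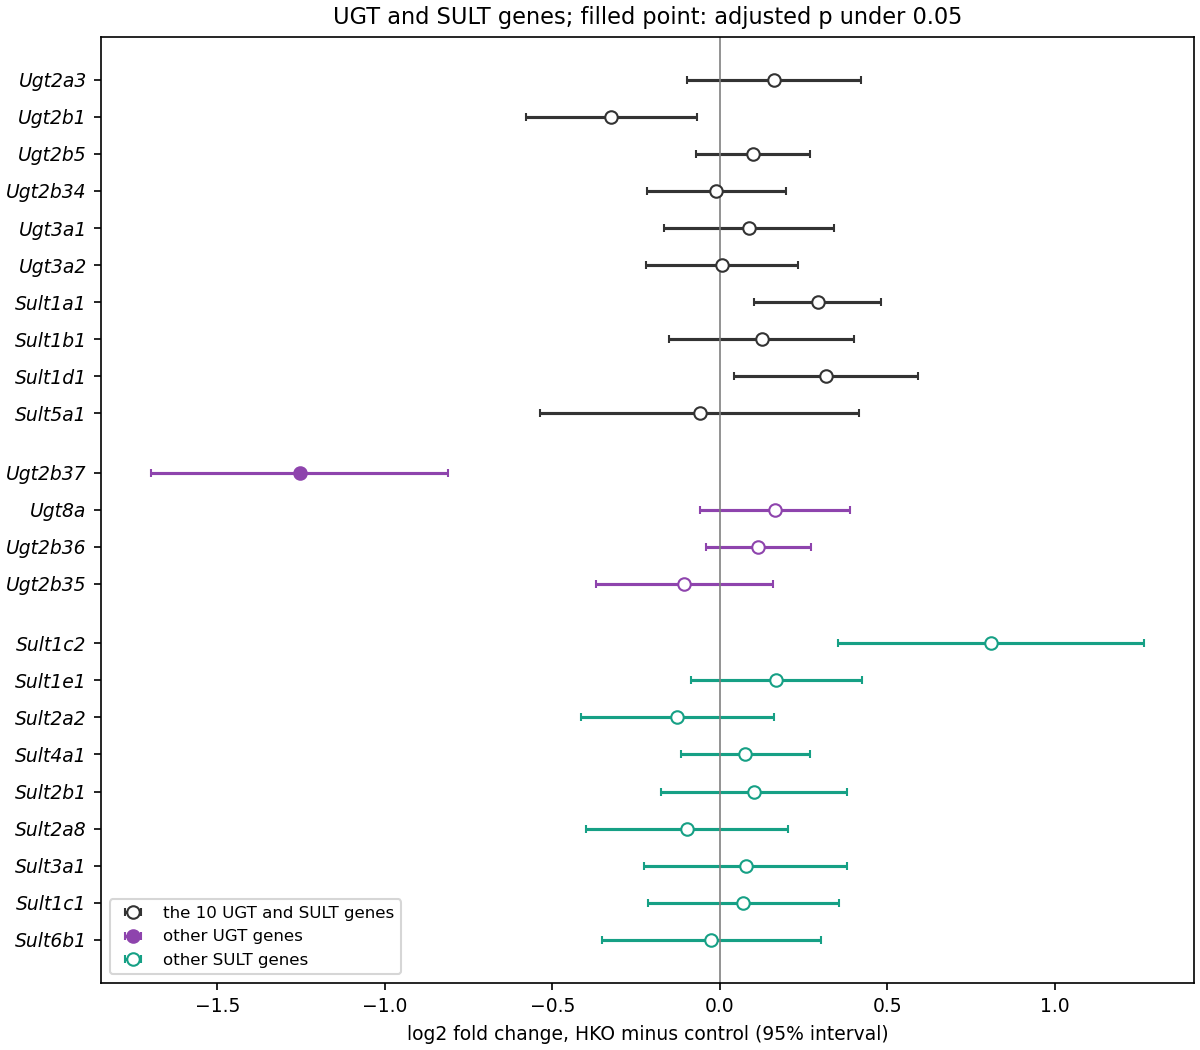
Log2 fold change (HKO minus control, horizontal axis) with 95% intervals for the 10 genes (black), 4 other UGT genes (purple) and 9 other SULT genes (green). A filled point passed the adjusted threshold, which held for Ugt2b37 alone. Sult1c2 has the highest value, 0.81, and did not pass.

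Of the 9 other SULT genes measured, none passed the test, and their log2 fold changes had a median of 0.08. Of these, 8 lay below the level of the median gene. Sult1c2 was at 4.97, 4.68 and 5.59 in HKO liver and at 4.28, 4.23 and 4.29 in control liver, with no overlap and a log2 fold change of 0.81 ± 0.20 (adjusted p = 0.139). Sult1e1, the estrogen sulfotransferase, was at 1.46, 1.67 and 1.58 in HKO liver and at 1.62, 1.26 and 1.31 in control liver (0.17, adjusted p = 0.577). Sult2a2 and Sult3a1, of subfamilies with members that mouse liver expresses more in females, lay between 1.51 and 1.66 and between 1.38 and 1.54 in HKO liver. In control liver they lay between 1.44 and 1.94 and between 1.14 and 1.67. These are among the dimmest signals of the array in both genotypes. Sult2a8, of the same subfamily as Sult2a2, was bright. It was at 11.46, 11.63 and 11.12 in HKO liver and at 11.40, 11.50 and 11.60 in control liver (-0.10, adjusted p = 0.804). Of 16 other UGT genes listed, 4 were measured with a probe set assigned to them alone. The UGT1A genes were listed, but none had a probe set assigned to it alone, so this part of the family is not covered. Probe sets assigned to several genes, 62 on the array, were left out. Of the other 4 UGT genes measured, 1 fell (Ugt2b37) and 3 did not pass, Ugt8a, which makes galactosylceramide, with a log2 fold change of 0.16 (adjusted p = 0.535).

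Genes related to the steps before and after conjugation were examined with the same fit. None of 11 genes for the supply of the donors passed, with a median log2 fold change of 0.08. Ugdh, which makes UDP-glucuronic acid, was at 9.42, 9.43 and 9.88 in HKO liver and at 8.96, 9.12 and 9.13 in control liver. Its groups did not overlap, and its log2 fold change was 0.50 ± 0.13 (adjusted p = 0.166). Ugp2, which makes the UDP-glucose before it, was at 10.71, 10.54 and 10.83 in HKO liver and at 10.33, 10.25 and 10.38 in control liver, again without overlap (0.37 ± 0.09, adjusted p = 0.135). The PAPS synthases Papss2 and Papss1 had log2 fold changes of 0.13 (0.531) and -0.13 (0.629). Of 4 genes related to glucuronidase and sulfatase activity none passed. The glucuronidase Gusb was at 0.14 (0.704), the sulfatases Arsa at 0.27 (0.199) and Arsb at 0.12 (0.632), and Sumf1 at -0.02 (0.945). Whether these sulfatases act on the products of the SULT enzymes was not tested.

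Of 11 carriers of glucuronides and sulfates, 2 rose and 9 did not pass. Abcc3, which exports glucuronides into blood, was at 9.58, 9.47 and 9.69 in HKO liver and at 9.13, 8.92 and 8.73 in control liver, a rise of 0.65 ± 0.11 (adjusted p = 0.0457). Slco1a4, an uptake carrier of organic anions, was at 8.40, 7.41 and 8.44 in HKO liver and at 6.35, 6.53 and 6.41 in control liver, a rise of 1.66 ± 0.25 (adjusted p = 0.0257). Each passed in 1 of the 6 fits that left out 1 array, Abcc3 without control 1 and Slco1a4 without HKO 2. In the other 5 the adjusted p went up to 0.168 for Abcc3 and 0.116 for Slco1a4. With the replicate block neither passed (0.0947 for Abcc3 and 0.0524 for Slco1a4), and with limma's trend and robust options Slco1a4 did not (0.0816). Slco1a1, a related uptake carrier that male liver expresses more, was at 7.83, 9.68 and 8.06 in HKO liver and at 10.46, 10.43 and 10.43 in control liver. The groups did not overlap, and its log2 fold change of -1.91 ± 0.41 did not pass (adjusted p = 0.0908). Abcc2, which exports conjugates into bile, had a log2 fold change of 0.22 (0.254).

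Of 11 other conjugating enzymes, 1 rose. Inmt, an N-methyltransferase of indoles, was at 11.23, 11.08 and 11.08 in HKO liver and at 10.45, 10.51 and 10.63 in control liver (0.60 ± 0.08, adjusted p = 0.0183). It did not pass without HKO 1, HKO 3, control 1 or control 2 (adjusted p up to 0.0859), or with the replicate block (0.0634). Hnmt, which methylates histamine, had a log2 fold change of 0.43 (0.187) and Nat8 one of -0.50 (0.292). None of 19 regulators of conjugation genes passed. Nr1i3, the nuclear receptor CAR, which drives drug-metabolising genes, was at 8.33, 8.31 and 8.23 in HKO liver and at 7.97, 7.67 and 7.67 in control liver, without overlap and just short of the threshold (0.52 ± 0.10, adjusted p = 0.0616). Foxa1, a liver transcription factor, had a log2 fold change of -0.60 (0.144).

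Sex-biased liver genes were set beside the enzymes because several UGT and SULT genes are sex-biased in mice. Of 13 measured female-biased genes 5 rose and none fell, with a median log2 fold change of 1.38. They were Cyp2b9, Cyp2b13, Hao2, Acot3 and Slc22a27, with values between 1.38 and 6.28. Of 13 male-biased genes 5 fell and none rose, with a median of -1.74. They were Moxd1, Serpina4-ps1, C6, C8b and Cyp7b1, with values between -5.11 and -1.74. Of these 10 genes, Cyp7b1 and Serpina4-ps1 lost the call in fits that left out 1 array. Cyp7b1 did not pass in 5 of the 6 fits, all but that without HKO 2 (adjusted p up to 0.114). Serpina4-ps1 did not pass without HKO 1, HKO 2, HKO 3 or control 2 (adjusted p up to 0.115). With limma's trend and robust options neither passed (0.0996 for Cyp7b1 and 0.14 for Serpina4-ps1), and with the replicate block Serpina4-ps1 did not (0.0701). These lists were drawn up with earlier results of these arrays known, so their counts are no independent evidence of a direction.

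**Figure D4:**
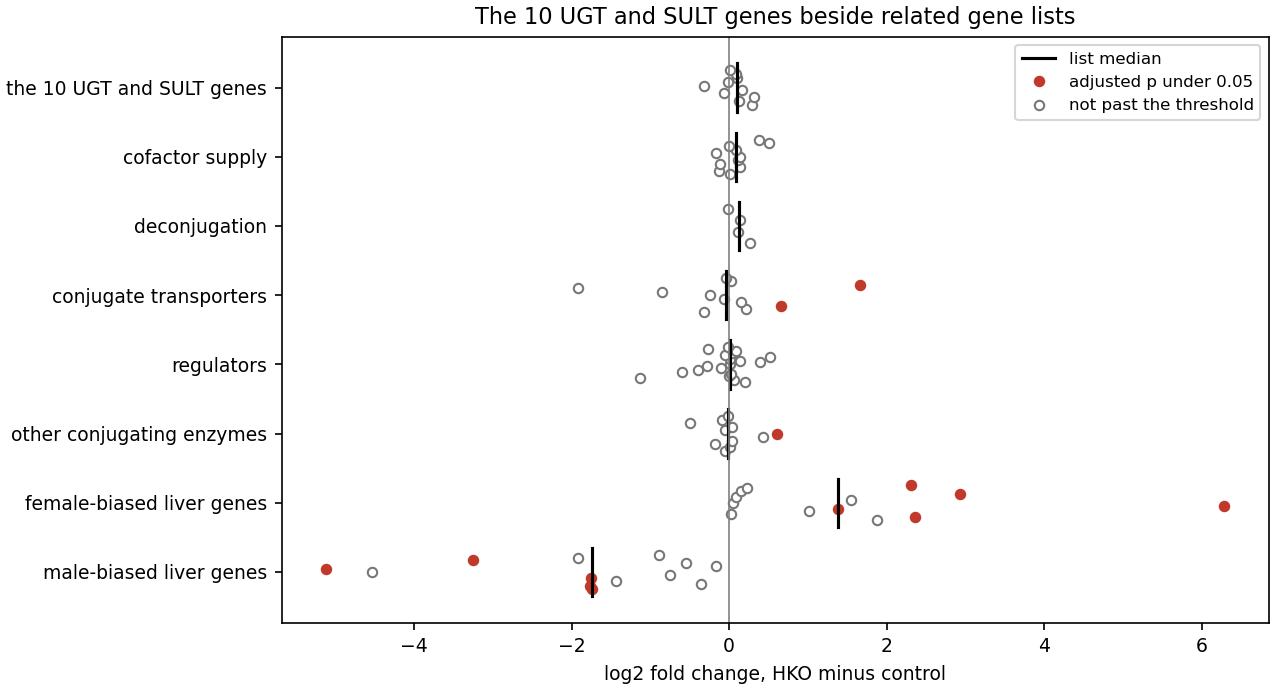
Log2 fold change (HKO minus control, horizontal axis) of the 10 UGT and SULT genes and of 7 related gene lists (rows), 1 point a gene and a black bar at the list median. Filled points passed the adjusted threshold. The 10 genes lie between -0.32 and 0.32, the female-biased genes between 0.02 and 6.28 and the male-biased genes between -5.11 and -0.17.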

How the data were processed

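Liver RNA of 3 HKO and 3 control mice, described in the labels as biological samples, was hybridised to Affymetrix arrays. The deposited values are log2 intensities of 38208 probe sets. The submitters' processing notes name RMA and limma, without settings or a probe annotation. RMA forces the arrays onto 1 distribution, which hides any change common to all transcripts, and it shrinks differences between dim probe sets. A gene was represented by its probe set of highest mean level on the 6 arrays, which left 18029 genes. The genotypes were tested with limma 3.58.1 under R 4.3.3 (lmFit and eBayes, HKO minus control, two-sided). Benjamini-Hochberg adjustment ran over all genes, with 0.05 as the threshold, and separately over 38195 probe sets that are not Affymetrix controls. The fit was tested on simulated data with 200 changed genes among 18029. It called 35.8% of changes of 0.5 log2 units, 97% of those of 1 and 100% of those of 2. The rule for named genes took the 10 genes, other UGT and SULT genes that passed or had the lowest p, and from each related list those that passed and the 2 with the lowest p. Sult2a2, Sult2a8, Sult3a1, Ugt2b35, Papss1, Papss2, Gusb, Sumf1, Slco1a1, Abcc2, Nat8 and Hsd3b5 were named for their role after their values were seen. Genes and lists were chosen with earlier results of these data known. Promoters are from RefSeq (GRCm38.p6). Arrays with the same number deviated from their group means with correlations of -0.094, 0.069 and 0.112, so numbers were not used as pairs in the main fit. Alternatives were other normalizations, filters, probe set choices, variance models, array weights, a replicate block, a looser threshold and leaving out each array in turn. The replicate block treats arrays with the same number as pairs, for which the labels give no basis, and it leaves fewer degrees of freedom.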

Additional observations from a re-analysis of the deposited data

How the results depend on the processing

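None of the 10 genes passed, in either direction, under any of 9 other settings that gave gene counts, in the fit of all probe sets, or in the 6 fits without 1 array. Fold changes of genes near 0 changed sign: Ugt2b34 was at 0.005 with array weights and Ugt3a2 at -0.018 after quantile normalization. Without 1 array each, Ugt2b34 lay between -0.073 and 0.068, Ugt3a1 between -0.026 and 0.192, Ugt3a2 between -0.064 and 0.109 and Sult5a1 between -0.26 and 0.171. Over all genes, 101 were higher and 81 lower in HKO liver. At an adjusted p under 0.1 these were 165 and 179, and the lower genes were 122 among genes above the median brightness, 126 with the trend and robust options and 53 with the replicate block. Without 1 array, between 46 and 94 genes were higher and between 32 and 67 lower. Of the other UGT and SULT genes, 0 were lower among bright genes, a filter that removes Ugt2b37, and 0 with the replicate block (Ugt2b37 adjusted p = 0.0686). Without 1 array this count lay between 0 and 1. Of the donor, carrier, deconjugation, regulator and other conjugation genes together, 3 were higher and 0 lower in the main fit. With the replicate block 0 were higher and 1 lower. At an adjusted p under 0.1, 4 were higher and 1 lower, and among genes above the median brightness 4 were higher and 0 lower. Without 1 array between 0 and 2 were higher and between 0 and 1 lower. The female-biased genes that rose were 3 among bright genes, a filter that removes Cyp2b13, Hao2 and Slc22a27. Without 1 array they were between 5 and 7, and the male-biased genes that fell were between 3 and 7. Of the 6 arrays, 2 correlated best with the array of the same number in the other genotype, and the labels do not say that numbers are shared. Where no cause is named, the cause was not tested.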

Other observations

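HKO 2 was the highest HKO array in 12 of 13 male-biased genes and the lowest in 10 of 13 female-biased genes. These lists were drawn up with earlier results of these arrays known, and the counts were not made over all genes. Hsd3b5, a steroid dehydrogenase of male liver, was named after its values were seen. It was at 4.92, 9.50 and 4.28 in HKO liver and at 10.76, 10.74 and 10.83 in control liver. Of the 10 UGT and SULT genes, HKO 2 was the highest HKO array in 5 (Ugt2b1, Ugt3a1, Ugt3a2, Sult1b1 and Sult5a1) and the lowest in 3. The relation between these genes and the sex-biased genes was not tested.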
